A study of Xenopus laevis with 4 samples.

Results

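The genes described here are the cadherins, protocadherins, desmosomal genes and catenins of Xenopus laevis, the African clawed frog. They were picked by name. After a final .L or .S was removed, a feature had to be a numbered cadherin (cdh), a protocadherin (pcdh), a desmoglein (dsg), a desmocollin (dsc) or an alpha, beta or delta catenin (ctnn), or be dsp, jup or pkp2. The rule found 70 of the 49078 features in the table, under 45 symbols, 35 of them ending in .L and 35 in .S. X. laevis is allotetraploid, so many genes have a copy on a long (.L) and a short (.S) chromosome, called homeologs. By sub-family there were 34 features of cadherins, 15 of protocadherins, 9 of desmosomal genes and 7 of catenins. A further 5 features match the catenin pattern by name without encoding a catenin of the adhesion complex.

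Classical cadherins are calcium-dependent adhesion proteins that bind the same cadherin on a neighbouring cell. Inside the cell they bind beta-catenin or plakoglobin and p120 (delta) catenin, and alpha-catenin links the complex to actin. Desmosomal cadherins are joined through plakoglobin, plakophilin and desmoplakin to intermediate filaments. Most protocadherins do not bind beta-catenin and act mainly in cell sorting and cell movement. In the Xenopus blastula, adhesion rests on a maternal cadherin, C-cadherin (also EP-cadherin, gene cdh3), whereas E-cadherin (cdh1) is known as a gene of the embryonic ectoderm that is switched on by the embryo.

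The samples were whole embryos of the mid-blastula transition, taken about 9 hours after fertilization, when transcription of the embryo's own genome starts on a large scale. The 2 EU-RNA libraries hold RNA captured from embryos that received an injection of 5-ethynyl uridine (EU; 10 nl, 50 mM) at the 1-cell stage. EU is a uridine analogue that enters RNA made after the injection. The 2 Normal libraries hold total RNA, maternal and newly made together, of embryos without injection. Capture and injection therefore cannot be told apart between the groups. No genotype, clutch or number of embryos per library is given in the sources used here, so the spread that p-values are set against is that between 2 libraries and may be technical.

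The EU-RNA libraries held 81201990 and 117849586 estimated counts in all, and the Normal libraries 47598265 and 209445802. The largest feature took 4.26% and 4.81% of these counts in EU-RNA, against 29.1% and 28.1% in Normal. Levels below are in CPM, counts scaled by library total with TMM factors. TMM sets the average transcript to a log2 fold change near 0, so each fold change is read against that average. Levels are not divided by transcript length and are compared between libraries, not between genes. In these bulk samples, fewer cells of a type and less RNA per cell cannot be told apart. Of 18 features of known zygotic blastula genes, 14 were higher in EU-RNA, and their summed level was 4016 to 4061 CPM in EU-RNA and 965 to 983 CPM in Normal. Of 11 features of egg transcripts, 3 were higher and 1 was lower. Over all tested features 4.69% were higher and 0.889% lower. The 3 higher egg features were vegt.L, vegt.S and wnt11b.L, with log2 fold changes from 1.72 to 1.99. These lie within the range of the zygotic blastula features, 0.89 to 4.94. The lower one was h1foo.L, at -1.09. Of 22 features of genes of differentiated tissues, 7 passed the filter on low counts. Alpha and gamma globin (hba1, hbg1), fast muscle light chain (myl1) and cardiac troponin I (tnni3) had 0 counts in all libraries. In contrast ins.L, an insulin gene, had 79 to 2361 counts and was higher in EU-RNA. The others that passed the filter were both copies of ckm and insm1, myh6.S and neurod1.L, and none of them was called. Among these, ckm.L had 284 to 2322 counts, insm1.L 839 to 3359 and insm1.S 912 to 4498.

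Among the adhesion genes, 3 features rose in captured RNA and 2 fell. The 3 that rose were pcdh8.2.S, pcdh18.S and cdh1.S. The 2 that fell were dsg4.L, a desmoglein, and ctnnal1.S, which is no member of the adhesion complex. Calls were made by the quasi-likelihood test of edgeR at a p below 0.05 after Benjamini-Hochberg adjustment over the 26543 features that passed the filter on low counts. Of the 70 adhesion features 49 passed that filter. The 3 higher features are 6.12% of these 49, against 4.69% of all tested features. The 2 lower ones are 4.08%, against 0.889% of all tested features. With counts this small, neither share is read as particular to the adhesion genes. DESeq2 called 14 of the 49 higher and 5 lower, where 11.3% and 7.08% of all tested features were called. limma-voom called 4 higher and 3 lower, against 4.25% and 1.45% of all. At an unadjusted p below 0.05 in edgeR, 14 were higher and 5 lower, against 12.3% of all features in each direction. The median log2 fold change of the 49 was 0.43, beside 0.01 over all tested features. It is the value of cdh1.L, which had an SE of 3.20 and 0 counts in replicate 1 of both groups. The median of the 49 is therefore poorly determined. This median turned negative, to between -0.27 and -0.12, without either EU-RNA library, without Normal replicate 1 and without the filter, where more features of low count enter. The median over all features was also negative in these 4 fits, from -0.45 to -0.14. All members called here have a mean of at least 10 CPM over the 4 libraries. At or above that level there were 29 adhesion features, with a median of -0.02 beside -0.09 for all features of that level.

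**Figure D1:**
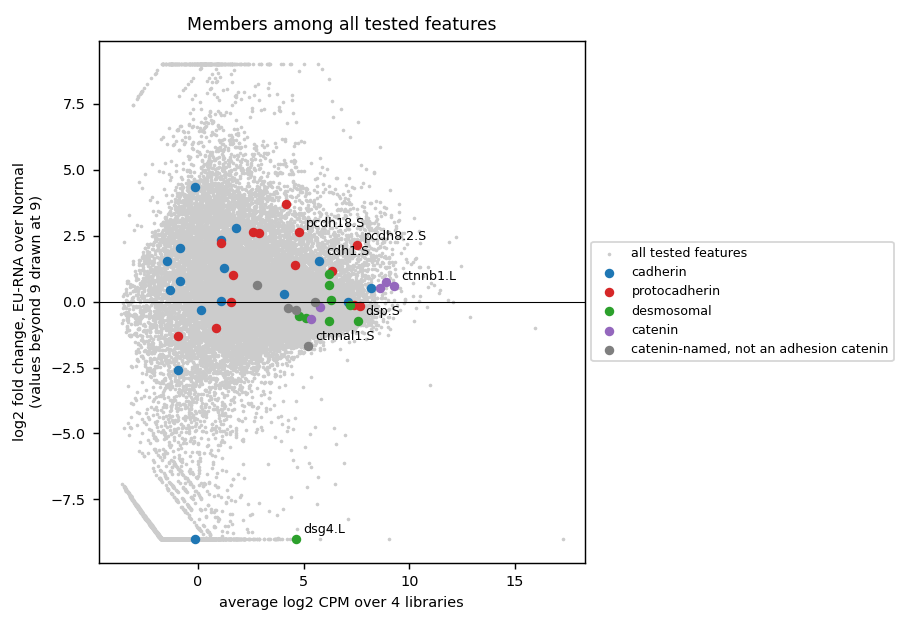
Average log2 CPM over 4 libraries (horizontal axis) against the log2 fold change of EU-RNA over Normal (vertical axis, values beyond 9 drawn at 9) for all 26543 tested features in grey and the 49 tested adhesion features in colour. The beta-catenin copy ctnnb1.L lies at 0.60 at a high average level, pcdh8.2.S and pcdh18.S lie above 2, and dsg4.L lies at the lower edge.

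The maternal cadherin gene cdh3 was well detected in both groups, and neither copy passed by edgeR. cdh3.L stood at 361 and 328 CPM in EU-RNA, against 239 and 241 CPM in Normal. The groups did not overlap, but the log2 fold change of 0.52 (SE 0.18) did not pass (edgeR adjusted p = 0.162). DESeq2 called cdh3.L (adjusted p = 0.0169), as did edgeR without EU-RNA replicate 2 (adjusted p = 0.0130). Its homeolog cdh3.S stood at 137 and 131 CPM in EU-RNA, against 122 and 151 CPM in Normal. Here the EU-RNA libraries lay between the Normal ones, and the log2 fold change was -0.03 (SE 0.20) with an edgeR adjusted p of 0.952.

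The E-cadherin copy cdh1.S rose. It was at 92.1 and 66.5 CPM in EU-RNA, against 27.6 and 26.4 CPM in Normal. Both EU-RNA libraries lay more than 2-fold above both Normal libraries. The log2 fold change was 1.55 (SE 0.25, edgeR adjusted p = 0.0245), and the call held in all 11 alternative fits that keep the homeologs apart (other scalings, filters and tools, a replicate block, or a library left out). The other copy, cdh1.L, had 0 and 116 counts in EU-RNA and 0 and 119 counts in Normal, so nearly all cdh1 counts came from the .S copy. In the RefSeq annotation of X. laevis v10.1, cdh1 and cdh3 are adjacent protein-coding genes on both the .L and the .S chromosome. The adjacent genes cdh1.S and cdh3.S thus had log2 fold changes of 1.55 and -0.03. The difference between the adjacent genes was not tested.

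The neural and mesenchymal cadherin genes cdh2 and cdh11 were at low levels. The N-cadherin copy cdh2.S, of the gene known for the neural plate, was at 2.63 and 1.63 CPM in EU-RNA, against 2.90 and 1.30 CPM in Normal, and the groups overlapped. cdh2.L had no count in EU-RNA and 11 and 5 counts in Normal. cdh11.L, a copy of a cadherin gene of the neural crest, had counts only in Normal replicate 2, which held 77. Of 34 cadherin features 16 were tested. In 3 of these both EU-RNA libraries lay above both Normal libraries, and in 2 below. The shares of all tested features are 26.4% above and 30.6% below. By DESeq2 2 of the 16 were higher and 1 lower, beside 11.3% and 7.08% of all tested features. cdh26.S, at 14.7 and 21.8 CPM in EU-RNA against 14.2 and 15.9 CPM in Normal, was the one remaining cadherin above 10 CPM in every library, and its groups overlapped.

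Among the protocadherins pcdh8.2.S and pcdh18.S rose in captured RNA. Of 14 tested, 2 were higher by edgeR, 7 by DESeq2 and 2 by limma-voom, where the shares of all tested features were 4.69%, 11.3% and 4.25%. Both EU-RNA libraries lay above both Normal libraries in 8 of the 14 and below them in 1. Over all tested features these shares are 26.4% above and 30.6% below. The median log2 fold change of the protocadherins was 1.27, beside 0.01 over all tested features.

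pcdh8.2.S stood at 327 and 269.6 CPM in EU-RNA, against 60.8 and 73.8 CPM in Normal. The log2 fold change was 2.15 (SE 0.22, edgeR adjusted p = 0.00586), and the smallest value in any of 11 alternative fits was 1.95. Its homeolog pcdh8.2.L was at 130.2 and 91.6 CPM in EU-RNA, against 41.1 and 57.9 CPM in Normal. The groups of pcdh8.2.L did not overlap either, but its log2 fold change of 1.16 (SE 0.28) did not pass (edgeR adjusted p = 0.0767). DESeq2 called pcdh8.2.L higher (adjusted p = 0.00245), and limma-voom did not (adjusted p = 0.0760). With the counts of both copies summed, pcdh8.2 had a log2 fold change of 1.78 ± 0.23 (SE) at an edgeR adjusted p of 0.0101. pcdh8.2 neighbours pcdh8 in RefSeq, which gives pcdh8.L the synonym papc. PAPC, paraxial protocadherin, is known for its part in the cell movements of gastrulation. pcdh8.L itself was rare, at 2.29 and 3.59 CPM in EU-RNA against 3.67 and 2.25 CPM in Normal, and the groups overlapped. The counting may have divided reads shared by such tandem copies wrongly.

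pcdh18.S stood at 36.9 and 56.3 CPM in EU-RNA, against 5.69 and 9.38 CPM in Normal. It was higher by 2.62 on the log2 scale (SE 0.41, edgeR adjusted p = 0.0210), and all 11 alternative fits called it. pcdh10.L, a copy of OL-protocadherin, belongs to a gene that RefSeq places beside pcdh18. It was at 14.9 and 10.8 CPM in EU-RNA, against 2.21 and 2.00 CPM in Normal, with no overlap and a log2 fold change of 2.61 (SE 0.72) that did not pass (edgeR adjusted p = 0.106). By DESeq2 pcdh10.L was called higher (adjusted p = 0.00258), but not by limma-voom (adjusted p = 0.0886). pcdhga3.S, chosen after its values were seen, is named for the clustered gamma protocadherins, which in mammals are expressed in neurons. It was at 36.3 and 29.4 CPM in EU-RNA, against 0.698 and 4.31 CPM in Normal. Its log2 fold change was the highest of any protocadherin in the full fit, at 3.69 (SE 0.87), and did not pass (edgeR adjusted p = 0.0726). DESeq2 called pcdhga3.S higher (adjusted p = 5.73e-05), and limma-voom did not (adjusted p = 0.0710). The Normal libraries differed 6.18-fold from each other, and the log2 fold change was 2.93 without Normal replicate 1 and 5.56 without Normal replicate 2.

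pcdh7.L, a copy of NF-protocadherin, which is known for adhesion within the embryonic ectoderm, was at 32.0 and 36.7 CPM in EU-RNA, against 13.2 and 13.3 CPM in Normal. Its groups did not overlap, but the log2 fold change of 1.37 (SE 0.31) did not pass (edgeR adjusted p = 0.0661). DESeq2 called pcdh7.L higher (adjusted p = 0.00568), and limma-voom did not (adjusted p = 0.0539). pcdh1, axial protocadherin, is known for the sorting of notochord cells. Both of its copies were abundant. pcdh1.S was at 166 and 218 CPM in EU-RNA, against 214 and 213 CPM in Normal. pcdh1.L was at 143 and 179 CPM in EU-RNA, against 170.2 and 180.2 CPM in Normal. The groups overlapped for both copies, with log2 fold changes of -0.15 (SE 0.21) and -0.12 (SE 0.20). Scaled by library size only, these were 0.11 and 0.14, under a scaling that moved the median of all tested features to 0.28.

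**Figure D2:**
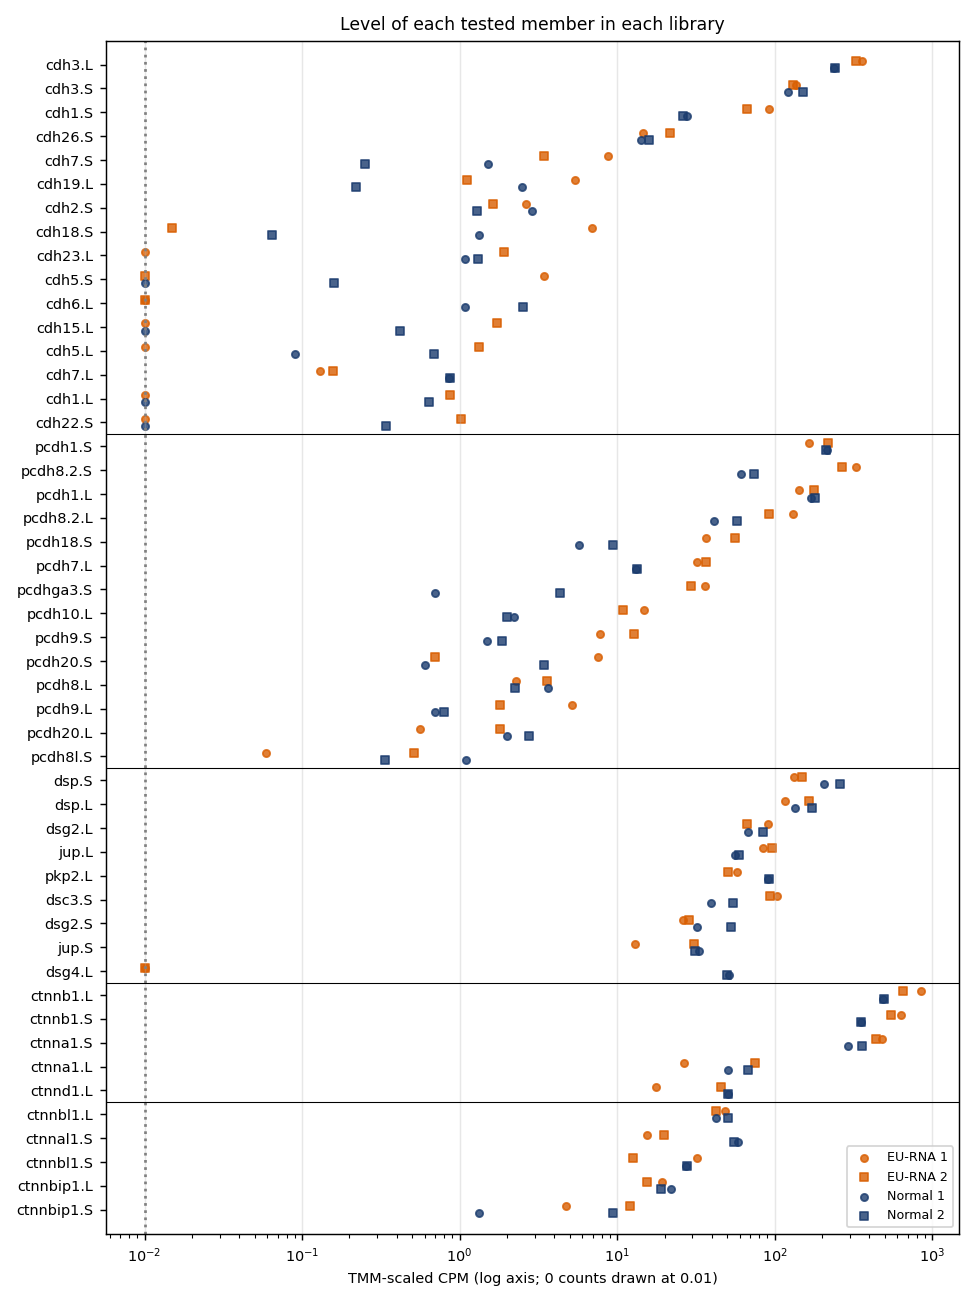
TMM-scaled CPM on a log axis for each of the 49 tested adhesion features, one point per library, EU-RNA drawn above Normal within each line, with features of 0 counts at 0.01. Lines separate cadherins, protocadherins, desmosomal genes, catenins and catenin-named genes; 8 of the 14 protocadherins have both EU-RNA points right of both Normal points.

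Of 9 desmosomal genes, 6 had negative and 3 positive log2 fold changes, with a median of -0.55 beside 0.01 over all tested features. In 5 both EU-RNA libraries lay below both Normal libraries and in 2 above. Over all tested features these shares are 30.6% and 26.4%. By edgeR 1 of the 9 passed, as lower (11.1%, beside 0.889% of all tested features). DESeq2 called 3 lower and 2 higher, beside 7.08% and 11.3% of all tested features. limma-voom called 2 lower, beside 1.45% of all, and 0 higher. dsg4.L had no count in EU-RNA, against 51.2 and 49.7 CPM in Normal, from 2277 and 9308 counts. With a floor of 3 counts over the EU-RNA group, it was at least 3690-fold lower in EU-RNA (edgeR adjusted p = 0.00358). The call held in all 11 alternative fits. Of all 26543 tested features 11, or 0.0414%, had no EU-RNA count and at least 10 CPM in both Normal libraries. The bound covers counting error only. The other desmoglein copies were present in captured RNA. dsg2.L was at 90.7 and 66.4 CPM in EU-RNA, against 67.8 and 84.1 CPM in Normal, and dsg2.S was at 26.3 and 28.5 CPM in EU-RNA, against 32.3 and 52.8 CPM in Normal. Neither passed, and dsg2.S alone had groups that did not overlap.

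The desmocollin dsc3.S had a positive value that did not pass. It was at 103 and 93.1 CPM in EU-RNA, against 39.6 and 54.1 CPM in Normal. The groups were separate, and the log2 fold change of 1.07 (SE 0.24) missed the threshold (edgeR adjusted p = 0.0612). Of 11 alternative fits 8 called it, among them DESeq2 with an adjusted p of 0.00135.

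Among the plaque genes, desmoplakin and plakophilin copies had negative values that did not pass by edgeR. dsp.S was at 133 and 149 CPM in EU-RNA, against 207 and 259.7 CPM in Normal, a log2 fold change of -0.73 ± 0.21 (SE) at an edgeR adjusted p of 0.114. It was called lower by DESeq2 (adjusted p = 0.00168) and by limma-voom (adjusted p = 0.0484). dsp.L was at 116 and 166 CPM in EU-RNA, against 135 and 174 CPM in Normal, and its groups overlapped. pkp2.L, a copy of plakophilin 2, was at 57.8 and 50.9 CPM in EU-RNA, against 90.2 and 92.5 CPM in Normal, a log2 fold change of -0.75 ± 0.20 (SE) at an edgeR adjusted p of 0.0973. By DESeq2 pkp2.L was called lower (adjusted p = 0.0276). Plakoglobin (jup), which serves both desmosomes and adherens junctions, had copies on opposite sides. jup.L was at 84.4 and 96.5 CPM in EU-RNA, against 55.8 and 59.6 CPM in Normal, and jup.S at 13.0 and 30.9 CPM in EU-RNA, against 33.1 and 31.4 CPM in Normal. The log2 fold changes were 0.65 (SE 0.20, edgeR adjusted p = 0.137) for jup.L and -0.55 (SE 0.45, edgeR adjusted p = 0.548) for jup.S. By DESeq2 jup.L was called higher (adjusted p = 0.0463).

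The copies ctnnb1.L, ctnnb1.S and ctnna1.S took more counts than any other adhesion feature in both groups, and none of the 5 tested catenins passed by edgeR. An unadjusted p below 0.05 was reached by 3, DESeq2 called 3 and limma-voom 1, all higher, where 12.3%, 11.3% and 4.25% of all tested features were higher. ctnnb1 encodes beta-catenin, which works in adhesion and as the transcriptional effector of Wnt signalling. ctnnb1.L was at 845 and 649 CPM in EU-RNA, against 491 and 492 CPM in Normal. ctnnb1.S was at 635 and 550.4 CPM in EU-RNA, against 355 and 352 CPM in Normal. Both copies had separate groups, with log2 fold changes of 0.60 (SE 0.21, edgeR adjusted p = 0.162) and 0.74 (SE 0.19, edgeR adjusted p = 0.0898). The limma-voom call was ctnnb1.S, with a limma adjusted p of 0.0197, and 6 of 11 alternative fits called this copy.

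The alpha-catenin copy ctnna1.S was at 479 and 439 CPM in EU-RNA, against 291 and 359 CPM in Normal. Its log2 fold change was 0.50 (SE 0.20, edgeR adjusted p = 0.198). ctnna1.L was at 26.5 and 75.5 CPM in EU-RNA, against 50.8 and 68.0 CPM in Normal, so the EU-RNA libraries fell on both sides of the Normal ones. The p120 catenin copy ctnnd1.L was at 17.6 and 45.6 CPM in EU-RNA, against 50.3 and 50.3 CPM in Normal, with a log2 fold change of -0.67 ± 0.45 (SE) at an edgeR adjusted p of 0.449. EU-RNA replicate 1 was the low library for ctnna1.L, ctnnd1.L and jup.S. Leaving out EU-RNA replicate 1 gave log2 fold changes of 0.30, -0.20 and -0.12 in that order of genes, while leaving out EU-RNA replicate 2 gave -1.20, -1.57 and -1.36.

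Of the features that share the catenin name, ctnnal1.S fell in captured RNA. It encodes alpha-catulin, a relative of alpha-catenin. It was at 15.5 and 19.9 CPM in EU-RNA, against 58.4 and 54.9 CPM in Normal, with a log2 fold change of -1.68 ± 0.27 (SE) at an edgeR adjusted p of 0.0225. The call was lost without Normal replicate 1 (edgeR adjusted p = 0.0586). The copies of ctnnbip1, which encodes an inhibitor of beta-catenin binding to Tcf factors, and of ctnnbl1, which encodes a protein of the spliceosome, had log2 fold changes between -0.31 and 0.64. With all 4 libraries, none of these 4 passed by edgeR, DESeq2 or limma-voom, and none had an unadjusted p below 0.05 by edgeR. Without EU-RNA replicate 1, ctnnbl1.S had a log2 fold change of -1.18 and passed (edgeR adjusted p = 0.00617).

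**Figure D3:**
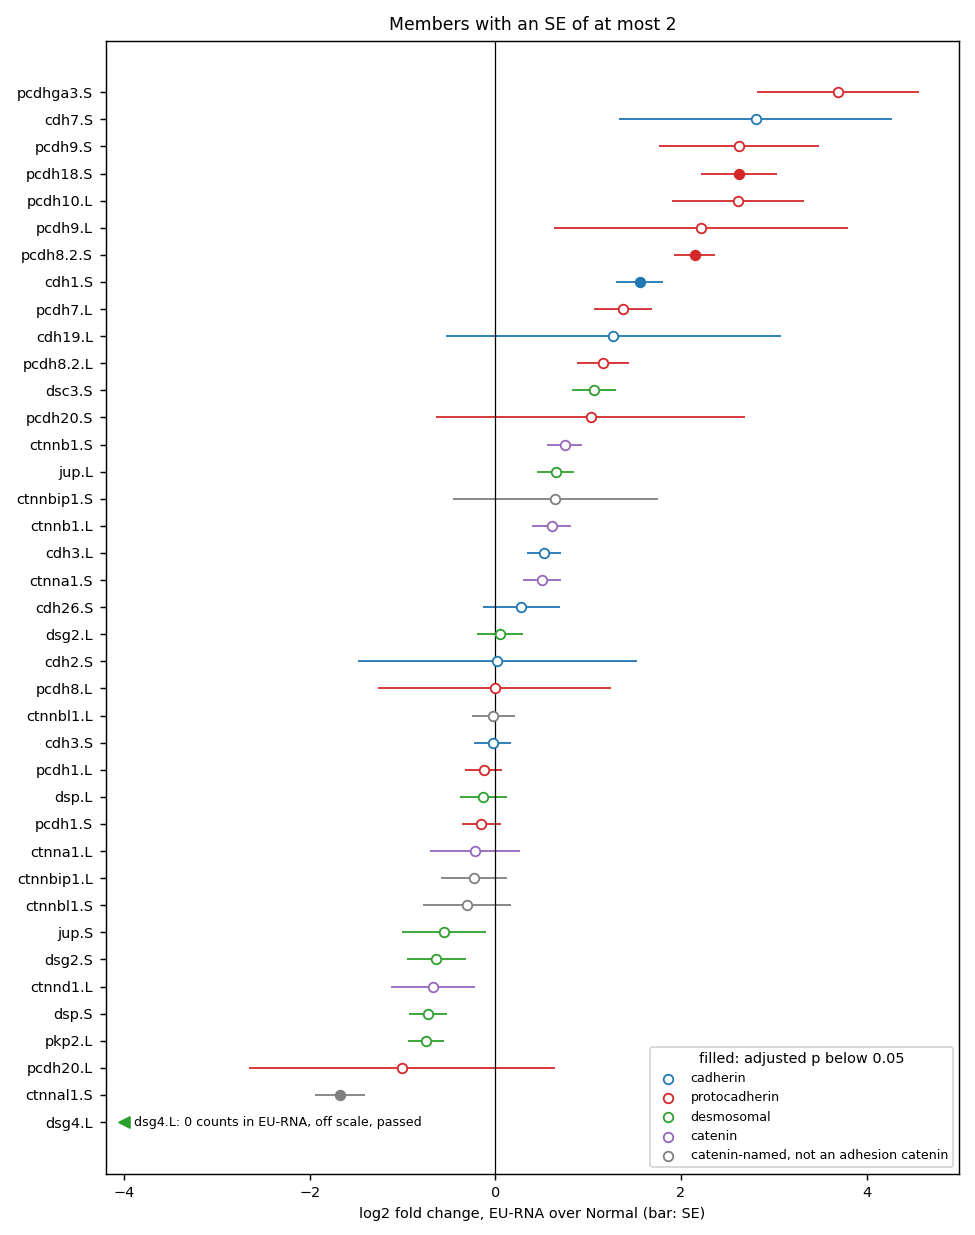
Log2 fold change of EU-RNA over Normal with its SE for the 39 tested adhesion features whose SE is at most 2, filled where the edgeR adjusted p is below 0.05, with dsg4.L marked at the left edge. Protocadherins take most places at the top, while desmosomal genes appear on both sides of 0; the 10 features not drawn have larger SEs.

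Ordered by what is known of their timing, maternal adhesion genes and genes known to be switched on by the embryo overlapped in their log2 fold changes. The maternal genes cdh3, ctnnb1, ctnna1, ctnnd1, jup and dsp had 11 tested copies, with log2 fold changes from -0.73 to 0.74 and a median of -0.03. None passed by edgeR. At an unadjusted p below 0.05 in edgeR, 5 were higher and 1 lower, against 12.3% of all tested features in each direction. DESeq2 had the same split, where 11.3% of all tested features were higher and 7.08% lower. limma-voom called 1 higher and 1 lower, against 4.25% and 1.45% of all. The summed level of the maternal list was 2847 and 2661 CPM in EU-RNA, against 2029.8 and 2238 CPM in Normal. The genes known as zygotic, cdh1, cdh2, pcdh8, pcdh1, pcdh7 and cdh11, had 7 tested copies with log2 fold changes from -0.15 to 1.55 and a median of 0.02. That median is the value of cdh2.S. Like cdh1.L and pcdh8.L, cdh2.S was below 10 CPM in every library, and the SEs of these copies ran from 1.26 to 3.20. The median is therefore poorly determined. The remaining copies were cdh1.S and pcdh7.L, at 1.55 and 1.37, and pcdh1.L and pcdh1.S, at -0.12 and -0.15. Of the 7 tested copies cdh1.S passed by edgeR, where 4.69% of all tested features were higher. At an unadjusted p below 0.05 in edgeR 2 of the 7 were higher, DESeq2 called 2 higher and limma-voom 1. None of the 7 was lower by these measures. The summed level of the zygotic list was 437 and 506 CPM in EU-RNA, against 432 and 437 CPM in Normal, most of it from pcdh1. pcdh8.2.S and pcdh18.S, which passed, belong to neither list. The pcdh8.2 copies were not counted with pcdh8, their neighbour in RefSeq. Their log2 fold changes were 1.16 (pcdh8.2.L) and 2.15 (pcdh8.2.S), so counting them would raise the median of the zygotic list. Total RNA also holds newly made RNA, so a ratio near the average does not tell whether a transcript was maternal. RNA captured without EU could not be measured, as the series holds no capture from embryos without injection. Counts in EU-RNA libraries alone therefore do not show that a transcript was newly made.

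The balance of homeologs in captured and total RNA is given as shares, and no adhesion pair passed the limma test of its log2 ratio. Of pcdh8.2 counts, the .S copy held 71.5% and 74.6% in EU-RNA, against 59.7% and 56.0% in Normal. Of jup counts, the .S copy held 13.3% and 24.3% in EU-RNA, against 37.2% and 34.5% in Normal. The .S share was also lower in EU-RNA for cdh3, at 27.5% and 28.5% against 33.8% and 38.5% in Normal, and for dsp, at 53.5% and 47.3% against 60.5% and 59.9% in Normal. For dsg2 it was lower too, at 22.5% and 30.1% in EU-RNA against 32.3% and 38.6% in Normal. For ctnna1 it was higher in EU-RNA, at 94.8% and 85.3% against 85.1% and 84.1% in Normal. The same held for ctnnb1, at 42.9% and 45.9% in EU-RNA against 42.0% and 41.7% in Normal. For pcdh1 it hardly moved, at 53.7% and 55.0% in EU-RNA against 55.7% and 54.2% in Normal.

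The change in the log2 ratio of .S to .L counts was tested with limma over all 4523 homeolog pairs with both copies tested, a test added after the values were seen. Of these pairs 71, or 1.57%, passed at an adjusted p below 0.05. None of the 15 adhesion pairs did. The smallest limma adjusted p was that of pcdh8.2, at 0.0808 for a change of 0.98 (SE 0.24), followed by jup at 0.154 for -1.33 (SE 0.43). Unadjusted limma p were below 0.05 for pcdh8.2, jup, cdh3, dsp and cdh7. The share of all pairs at that level was not counted, so this is not read as particular to the adhesion genes. Reads shared between near-identical copies can be divided wrongly by the counting, so the value of a single copy is uncertain in that respect.

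**Figure D4:**
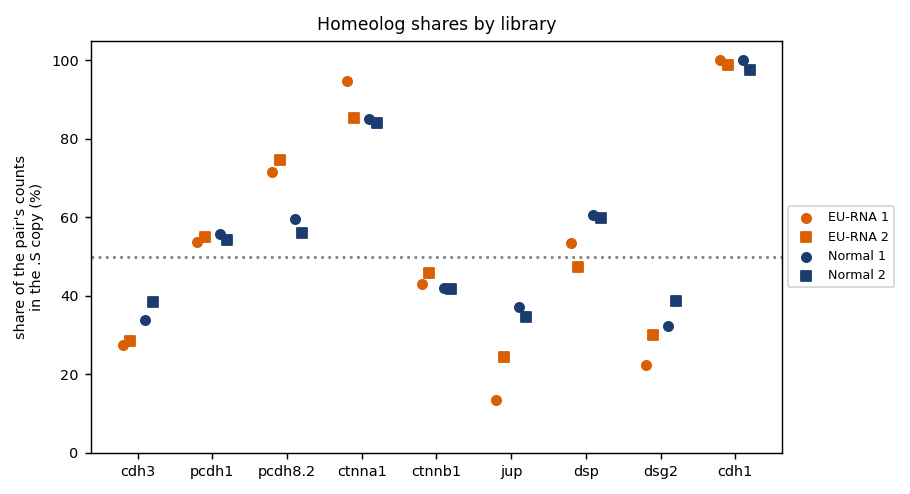
Share of a pair's counts in the .S copy (percent) in each library for 9 adhesion genes, EU-RNA points left of Normal points. The shares of pcdh8.2, ctnna1 and ctnnb1 are higher in both EU-RNA libraries, those of jup, cdh3, dsp and dsg2 are lower in both, and those of pcdh1 lie together.

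Some adhesion features were rare or split between replicates, which is not read as particular to them. Of 70 adhesion features 49 were tested, and of all 49078 features 26543 were. Of the 21 that were not tested, 5 had 0 counts in all libraries, 12 had counts only in Normal replicate 2, the deepest library, and the highest count in any library was 110. The untested ones were 18 cadherins, pcdh17.S, ctnna2.L and ctnnd1.S. Among the 49 tested, the EU-RNA libraries were more than 2-fold apart in 18, and the Normal libraries in 14. Over all tested features these shares are 44.2% and 30.4%. cdh18.S is an example, with 593 and 2 counts in EU-RNA, against 59 and 12 in Normal.

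Other genes of the junction were taken from lists. Among adherens junction and nectin partners, 2 of 32 tested features were higher (6.25%, beside 4.69% of all tested features) and 0 lower. The median log2 fold change was -0.33, with 24 negative and 8 positive values. At an unadjusted p below 0.05 in edgeR, 3 were higher and 6 lower, against 12.3% of all features in each direction. DESeq2 called 3 higher and 5 lower, against 11.3% and 7.08% of all. nectin2.L, which encodes an adhesion protein of the immunoglobulin family, was at 161 and 113 CPM in EU-RNA, against 25.6 and 34.6 CPM in Normal (log2 fold change 2.19, SE 0.28, edgeR adjusted p = 0.0110). epha2.L, a receptor tyrosine kinase gene, was higher by 1.19 (SE 0.19) at an edgeR adjusted p of 0.0209. Leaving out either Normal library ended this call, with an edgeR adjusted p of up to 0.0666. The list of desmosome and plaque partners had 9 tested features, among them epg5.L, which is not of a desmosome gene. Of the 9 features 1 was lower (11.1%, beside 0.889% of all tested features). It was plec.S, which encodes the cytoskeletal linker plectin, with a log2 fold change of -1.17 (SE 0.23) at an edgeR adjusted p of 0.0444. This call was lost with scaling by library size only and without Normal replicate 2, with an edgeR adjusted p of up to 0.115. None of 9 tested features of the wider cadherin superfamily, such as fat, dchs and celsr genes, passed by edgeR or limma-voom. Of these, 3 were higher at an unadjusted p below 0.05 and by DESeq2, beside 12.3% and 11.3% of all tested features. They were fjx1.L and fjx1.S, of a gene on the list that is not itself a cadherin, and cdhr3.L. cdhr3.L was rare, at 0.141 and 2.28 CPM in EU-RNA against 0 in Normal. No fat, dchs or celsr feature was among the 3.

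The last list holds genes that regulate cadherins. Of its 36 tested features, 8 were higher (22.2%, beside 4.69% of all tested features). The 1 lower feature is 2.78%, beside 0.889%. Of all features with a mean of at least 10 CPM, 10.1% were higher. The list was chosen with earlier results of these data known, and it counts homeologs separately. Its share is therefore not read as particular to cadherin regulators. The median log2 fold change of the 36 was -0.20. The zinc finger gene snai1.S encodes Snail, a repressor of E-cadherin transcription. It was at 1242 and 999.9 CPM in EU-RNA, against 140.1 and 135 CPM in Normal, a log2 fold change of 3.03 ± 0.22 (SE) at an edgeR adjusted p of 0.00358. flrt3 and rnd1, whose products lower C-cadherin adhesion in Xenopus embryos, were higher in both copies. Their log2 fold changes were 2.39 (SE 0.19) for flrt3.L, 2.32 (SE 0.20) for flrt3.S, 2.27 (SE 0.22) for rnd1.L and 2.23 (SE 0.22) for rnd1.S. flrt3.L stood at 591 and 553 CPM in EU-RNA, against 108 and 111 CPM in Normal. Both copies of nedd9, a scaffold protein gene of the Cas family, were higher too, by 1.77 (SE 0.22) for nedd9.L and 2.77 (SE 0.27) for nedd9.S, as was the metalloprotease gene adam33.L, by 1.90 (SE 0.28). All 8 were called in 11 of 11 alternative fits. The phosphatase gene ptpn1.S fell, with a log2 fold change of -1.24 (SE 0.24) at an edgeR adjusted p of 0.0408. Leaving out either Normal library ended this call, as did scaling by library size only, each with an edgeR adjusted p of up to 0.237.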

How the data were processed

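RNA of 2 EU-RNA and 2 Normal libraries was analysed. The authors deposited whole-number estimated counts, 1 column per library and 1 line per gene. Their processing used bcl2fastq and Salmon 0.12.0 per the submitters' processing notes, and the table's name refers to tximport. No coordinates or sequences are printed, and overlapping genes cannot be told apart, since transcript set, genome build, length scaling and use of strand are not given in the sources used here. Columns left unused numbered 0.

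Estimated counts, rounded, were tested with edgeR 4.0.16 in R 4.3.3: filterByExpr at its defaults, TMM factors, a model of group alone, quasi-likelihood F-test and Benjamini-Hochberg adjustment over 26543 features. Fold changes, on the log2 scale, put EU-RNA over Normal, and their SE was taken as |log2 fold change|/√F. A count of 0 allows up to 3 counts, which is 0.0352 and 0.0224 CPM in EU-RNA and 0.0675 and 0.0160 CPM in Normal; intervals and floors of this kind cover counting error only. Homeolog ratios used limma 3.58.1 on log2((.S + 5)/(.L + 5)) of the counts. Alternatives were DESeq2 1.42.0, limma-voom, other scaling and filters, a replicate block, summed homeologs and leaving out each library.

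The genes and lists were chosen with earlier results of these data known. Named were all called genes, the 6 most abundant per group, textbook adhesion genes of the early embryo and the homeologs of these. Added after their values were seen were pcdhga3.S, cdh26.S and the copies of ctnnbip1 and ctnnbl1. Others, such as cdh18.S, are named only as examples or in counts of features. Of 70 features 60 matched a RefSeq symbol, used for neighbours only.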

Additional observations from a re-analysis of the deposited data

How the results depend on the processing

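Of the called adhesion features, dsg4.L, pcdh8.2.S, pcdh18.S and cdh1.S kept their direction and call in all 12 alternatives, and ctnnal1.S in all but 1. The number of higher adhesion features, 3 in the full fit, was 14 by DESeq2, 8 without a filter, 8 with library size only and 6 with the replicate block, and 4 to 15 with a library left out. The number of lower ones, 2 in the full fit, was 5 by DESeq2 and 1 to 9 with a library left out. Over all features, 1246 were higher in the full fit, 2990 by DESeq2, 2488 without a filter and 1197 to 4577 with a library left out. The 236 lower features became 1879 by DESeq2, 142 with library size only, 385 by limma-voom, 1134 without a filter, 680 with the replicate block and 151 to 5218 with a library left out. With an EU-RNA library left out, the lone one is assumed to vary like the Normal libraries. Replicate numbers share no stated source, and the deviations of same-numbered libraries had r = 0.0033 over 26543 features, so the block is given here only. The adhesion genes' median of 0.43 was 0.76 with library size only, 0.16 by limma-voom, -0.13 without a filter, 0.17 with the stricter filter (at least 1 CPM in at least 2 libraries) and -0.27 to 0.38 with a library left out. The cause was not tested. Over all features the median of 0.01 was 0.28 with library size only, -0.21 by limma-voom and without a filter, -0.16 with the replicate block, 0.01 with the stricter filter and -0.45 to 0.23 with a library left out.

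Among the adhesion features described above with a fold change, those that changed sign had not passed. By limma-voom they were cdh1.L (-0.52), dsg2.L (-0.065) and pcdh8.L (0.33). With library size only they were cdh3.S (0.23), ctnna1.L (0.073), dsp.L (0.14), pcdh1.L (0.14), pcdh1.S (0.11), ctnnbip1.L (0.020), ctnnbl1.L (0.23) and pcdh8.L (0.26), and without a filter pcdh8.L (0.00049). With homeologs summed, cdh2 (-0.10), cdh3 (0.32), ctnna1 (0.38), ctnnbip1 (-0.028), dsg2 (-0.19) and jup (0.29) had another sign than 1 of their copies. With a library left out, the log2 fold change ran from -8.07 to 8.26 for cdh1.L, -0.45 to 0.72 for cdh2.S, -0.078 to 0.48 for cdh26.S, -0.17 to 0.13 for cdh3.S, -1.20 to 0.30 for ctnna1.L, -0.21 to 2.66 for ctnnbip1.S, -0.18 to 0.10 for ctnnbl1.L, -1.18 to 0.17 for ctnnbl1.S, -0.24 to 0.21 for dsg2.L, -0.46 to 0.062 for dsp.L and -0.42 to 0.39 for pcdh8.L. The homeolog log2 ratio then ran from -0.43 to 3.98 for cdh1, -0.18 to 2.74 for ctnnbip1, -0.999 to 0.14 for ctnnbl1 and -0.078 to 0.011 for pcdh1. Over these genes and pairs, 362 values kept their sign and side of the threshold, 68 newly passed, 42 changed sign and 1 was lost.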
